A study of Mus musculus with 12 samples.

Results

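The mitochondrial ribosomal proteins are the nuclear-encoded proteins of the ribosome that works inside mitochondria. They were taken as every protein-coding mouse gene whose symbol starts with Mrpl or Mrps followed by a number, which gave 78 genes of the 43629 gene identifiers counted. Of these, 51 belong to the large ribosomal subunit, Mrps30 and Mrps18a among them despite their symbols, and 26 to the small subunit. The remaining gene, Mrps36, encodes a protein that is known as a component of the 2-oxoglutarate dehydrogenase complex rather than of the ribosome. Going by protein families, 48 members have a counterpart in the bacterial ribosome and 29 are found in mitochondria only. For 75 of the 78 members, and 15059 genes in all, there were enough reads for a test.

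RNA was sequenced from 12 libraries of C57BL/6 mouse cells, 3 libraries in each of 4 groups. Group E consisted of mouse embryonic fibroblasts (MEFs) 3 weeks after they had received an empty vector, and group CM of ventricular cardiomyocytes isolated from adult mice. Groups GHMT and AGHMT were MEFs 3 weeks after receiving the factors Gata4, Hand2, Mef2c and Tbx5, without Akt and with it. Both were sorted for GFP driven by αMHC, the promoter of the cardiac myosin gene Myh6. The sort thus aimed at cells that had switched this reporter on, and its purity was not tested here. The labels name no sort for E or CM, so any difference of GHMT or AGHMT from E combines the factors and the sort, which cannot be told apart. No label says that the libraries of a group came from separate cultures or animals, so p-values measure the spread among these libraries, which may be technical.

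Mitochondria keep a small genome that encodes 13 subunits of the respiratory chain and 2 ribosomal RNAs, and only the mitochondrial ribosome translates the messenger RNAs of this genome. All of its proteins are made in the cytosol from nuclear genes and imported, where they assemble with the 2 mitochondrial ribosomal RNAs into a small subunit, which reads the messenger RNA, and a large subunit, which joins the amino acids. Adult cardiac muscle is known for its dense mitochondria and respiratory chain content, while cultured fibroblasts divide and carry fewer.

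The libraries differed in depth. GHMT was the shallowest group, with 1872558 to 2200815 reads assigned to genes per library. The ranges were 15971154 to 33552138 in E, 14386407 to 18493989 in AGHMT and 5120230 to 15952646 in CM. Transcripts of the mitochondrial genome made up 27.8 to 72.2% of them in GHMT, the most in replicate 1, and 40.0 to 59.9% in CM. In AGHMT the range was 36.6 to 42.7%, and in E only 3.65 to 7.36%. In GHMT, 3 reads corresponded to 1.56 to 3.93 CPM (edgeR's counts relative to library size, scaled by trimmed mean factors), so members in the single digits of CPM rest on a few reads there. The 4 factors were higher on average in GHMT and AGHMT than in E. Hand2, however, was not called in GHMT (log2 fold change 1.29, adjusted p = 0.166, edgeR's quasi-likelihood test) or in AGHMT (1.40, adjusted p = 0.115). Akt1 was not called higher in the libraries whose label adds Akt: its mean was 62.9 CPM in E, 9.53 in GHMT, 13.0 in the libraries labelled AGHMT and 48.7 in CM (AGHMT-labelled against GHMT, log2 fold change 0.34, adjusted p = 0.786, edgeR's quasi-likelihood test). Whether the counts would include reads from the introduced Akt is not stated in the labels, so the Akt label could not be checked, and these libraries are called AGHMT-labelled throughout.

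Markers of other cells also moved with the groups. The summed level of 7 cardiomyocyte markers was 10.2 to 14.5 CPM in E, 703 to 1219 in GHMT, 2277 to 2980 in AGHMT-labelled and 17214 to 47951 in CM. All 7 fibroblast markers summed to 9593 to 10883 CPM in E, 4234 to 6170 in GHMT, 6557 to 7560 in AGHMT-labelled and 607 to 881 in CM, so fibroblast marker RNA was present in both sorted groups. The 4 markers of dividing cells summed to 560 to 1001 CPM in E and to less than that elsewhere, 50.9 to 94.4 in GHMT, 90.3 to 101 in AGHMT-labelled and 19.1 to 31.5 in CM. Smooth muscle markers (4 genes) summed to 1084 to 5502 CPM in E, 308 to 489 in GHMT, 376 to 579 in AGHMT-labelled and 81.3 to 300.3 in CM. Endothelial markers (6 genes) summed to 456 to 590 CPM in CM, 61.6 to 71.5 in AGHMT-labelled, 8.52 to 11.1 in E and 1.31 to 11.5 in GHMT, where Egfl7 was at 0. Macrophage markers (6 genes) summed to 38.3 to 121 CPM in CM, 14.3 to 19.6 in AGHMT-labelled, 2.996 to 9.83 in E and 0.521 to 1.31 in GHMT, where Adgre1, Cd68, C1qa and C1qb were at 0. Endothelial and macrophage RNA was thus highest in CM. Mast cell markers (4 genes) summed to 65.5 to 162 CPM in GHMT and 310 to 340 in AGHMT-labelled, against 0.151 to 0.306 in E and 6.87 to 10.1 in CM. In GHMT only 1 of these 4, Mcpt4, had any read, while Cpa3, Kit and Tpsb2 were at 0, and Tpsb2 was also at 0 in AGHMT-labelled and E. The part of these other cells in the levels below was not tested, and in bulk RNA fewer cells of a type cannot be told apart from less RNA per cell.

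Members as a group were most abundant in CM and least abundant in GHMT. Their share of all gene reads outside the mitochondrial genome, which does not depend on scaling factors, was 0.531%, 0.512% and 0.566% in the 3 CM libraries. In E it was 0.193%, 0.181% and 0.164%, in AGHMT-labelled 0.115%, 0.146% and 0.124%, and in GHMT 0.0411%, 0.0602% and 0.0715%. No 2 groups overlapped, and the order was CM, E, AGHMT-labelled, GHMT. The means were 0.536% ± 0.0273 (SD, n = 3 libraries) in CM, 0.180% ± 0.0146 in E, 0.128% ± 0.0160 in AGHMT-labelled and 0.0576% ± 0.0153 in GHMT. An exact two-sided permutation test of each pair of groups gave p = 0.1, the smallest that 3 libraries against 3 allow. The GHMT shares rest on 252, 924 and 709 member reads, with 95% Wilson intervals of 0.0364 to 0.0465%, 0.0565 to 0.0642% and 0.0664 to 0.0770% that cover counting error only. Every other library had between 9504 and 62519 member reads.

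**Figure D1:**
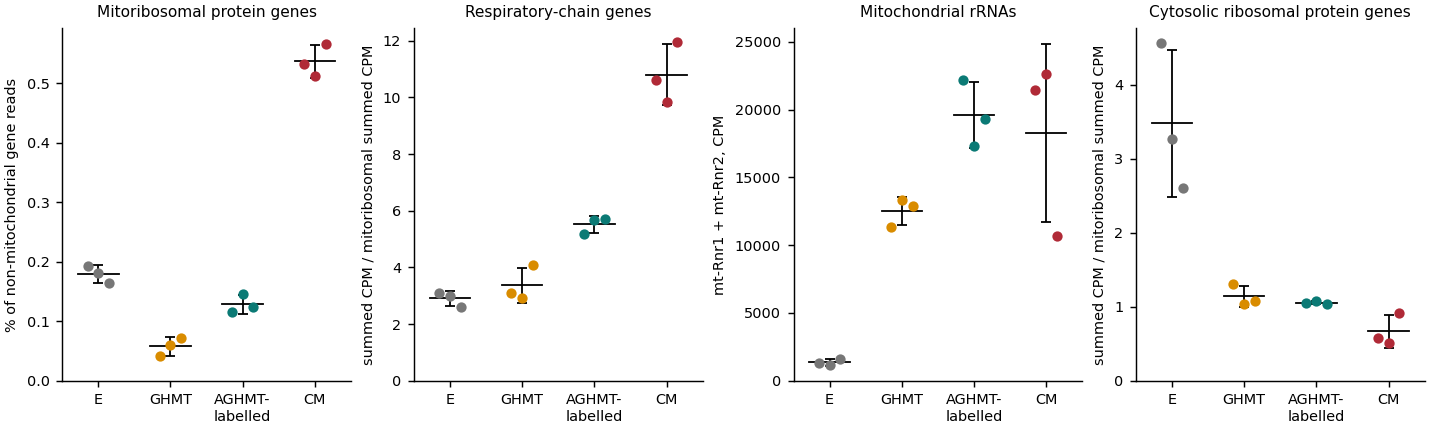
The members' percent of non-mitochondrial gene reads, the respiratory chain's summed CPM per summed member CPM, the CPM of both mitochondrial ribosomal RNAs, and the cytosolic ribosomal proteins' summed CPM per summed member CPM, for E, GHMT, AGHMT-labelled and CM. Each point is 1 library, and the bars give the mean and SD of 3. The members' share of reads is 0.512 to 0.566% in CM and at most 0.193% in every other library. Alignments that were not unique are absent from all counts.

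Set against the respiratory chain, whose mitochondrially encoded subunits this ribosome makes, the members' RNA was scarcest in CM. The summed CPM of 86 nuclear-encoded respiratory chain genes per summed CPM of the members was 2.91 ± 0.265 in E, 3.37 ± 0.623 in GHMT, 5.52 ± 0.301 in AGHMT-labelled and 10.8 ± 1.08 in CM (SD, n = 3). AGHMT-labelled (5.17 to 5.70) and CM (9.84 to 11.98) overlapped with no other group, while GHMT (2.92 to 4.08) lay close to E. For the mitochondrially encoded messenger RNAs, the ribosome's only templates, the same ratio was 18.3 to 46.4 in E, 113 to 283 in CM, 373 to 614 in AGHMT-labelled and 611 to 6262 in GHMT. Thus AGHMT-labelled cells held more template RNA per member RNA than CM did, without overlap, and this also held without mt-Nd6 (355 to 576 against 107 to 272). This 1 gene gave 43.1% of all gene reads in GHMT replicate 1, and without it the GHMT ratio was 534 to 2499. The large-to-small subunit ratio of summed CPM stayed within 2.11 to 2.88 in all 12 libraries, highest in CM at 2.71 to 2.88.

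In the comparison of CM with E, which sets the adult muscle cell against the starting fibroblast, 38 of the 75 tested members were higher in CM and none was lower. Over all genes tested, 19.5% were called higher and 22.5% lower. The members' median log2 fold change was 1.44, beside -0.26 over all genes. Large subunit members were called in 27 of 49 cases (median 1.56) and small subunit members in 10 of 25 (median 1.30). Members with a bacterial counterpart (23 of 47, median 1.36) and those of mitochondria only (14 of 27, median 1.47) gave similar numbers, and neither difference was tested. The count depends on the scaling: it was 9 with total counts as library sizes and 56 with DESeq2. The median of all genes itself moved from -1.25 to 0.15 over the 24 alternative settings. Leaving out 1 library gave 18 without E replicate 2 and 25 without E replicate 3. The members' median relative to that of all genes was 1.71 and ranged from 1.68 to 1.97 over the same settings.

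Mrpl42, a large subunit protein with no bacterial counterpart, had the highest level per kilobase of exon in CM (64.9 CPM per kilobase). It stood at 295, 191 and 231 CPM in CM and at 21.7, 27.4 and 10.6 in E. In GHMT it was 10.5, 6.25 and 15.1 CPM and in AGHMT-labelled 14.9, 19.1 and 15.2. CM was thus far above the 3 other groups, which overlapped (CM against E, log2 fold change 3.59, SE 0.41, adjusted p = 7.13e-06, edgeR's quasi-likelihood test as for all adjusted p-values below). Mrpl55, a large subunit protein, had the largest fold change, with 22.2, 29.3 and 50.5 CPM in CM and 2.12, 1.62 and 1.96 in E (log2 4.15, SE 0.59, adjusted p = 4.94e-05). Mrpl34, a small basic protein of the large subunit, reached 30.2, 26.2 and 49.1 CPM in CM and 3.76, 4.63 and 2.08 in E (log2 3.33, SE 0.61, adjusted p = 0.000455). Both genes had all CM libraries above all E libraries.

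Mrpl12 encodes the protein of the flexible stalk to which translation factors bind. It was at 31.1, 19.4 and 109 CPM in CM and 8.31, 3.89 and 2.02 in E (log2 3.48, SE 0.72, adjusted p = 0.00115), and the high CM value came from replicate 3. Mrpl18, a protein of the central protuberance, was at 53.1, 105 and 51.9 CPM in CM against 10.8, 8.96 and 11.3 in E (log2 2.76, SE 0.44, adjusted p = 0.000131). Mrpl30, a further large subunit protein, rose by a log2 fold change of 2.16 (adjusted p = 0.000756). Mrpl51 was chosen for display after its values were seen: it was at 164, 217 and 108 CPM in CM and at 15.6, 10.8 and 26.9 in E (log2 3.20, SE 0.42, adjusted p = 2.36e-05). The CM libraries were above the E libraries for each of these genes.

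Among small subunit members, Mrps35 had the largest fold change. It was at 105, 119 and 77.5 CPM in CM and 10.04, 7.57 and 10.6 in E (log2 3.42, SE 0.69, adjusted p = 0.00102). Mrps23 followed with 51.9, 57.6 and 77.3 CPM in CM and 13.6, 8.72 and 10.4 in E (log2 2.51, SE 0.47, adjusted p = 0.000553), and Mrps31 with 47.0, 55.9 and 39.5 against 8.21, 7.74 and 9.20 (log2 2.50, SE 0.64, adjusted p = 0.00544). Mrps24 stood at 26.5, 11.6 and 22.7 CPM in CM and at 4.06, 5.98 and 1.44 in E (log2 2.40, SE 0.67, adjusted p = 0.00968). For all 4 genes the groups did not overlap. Of the 20 calls named by rule in this comparison, 13 kept the call with each library left out in turn: the 10 named so far other than Mrpl51, and Mrps12, Mrpl44 and Mrps36 described next.

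**Figure D2:**
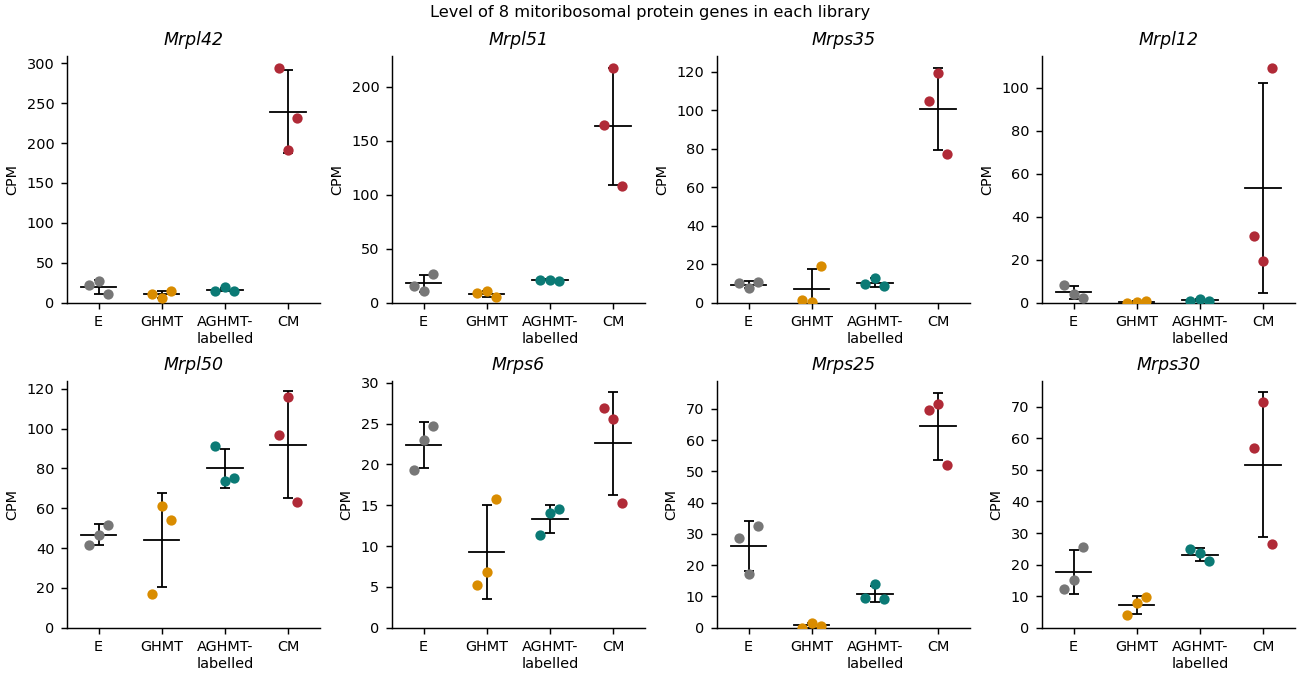
Level of 8 mitochondrial ribosomal protein genes in CPM, with 1 point per library and bars for the mean and SD of 3, each panel with its own linear axis from 0. Mrpl42, Mrpl51 and Mrps35 are highest in CM, Mrpl50 and Mrps6 differ less between groups, and Mrps25 is near 0 in GHMT.

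Members named for a known role did not move as one. Mrps12, the decoding-centre protein, rose in CM (25.6 ± 6.79 CPM against 5.96 ± 1.28 in E, SD, n = 3, log2 2.10, adjusted p = 0.00558), as did Mrpl44, which resembles a ribonuclease (21.2, 20.9 and 37.1 CPM against 5.85, 3.31 and 4.07, log2 2.58, adjusted p = 0.0075). Mrpl45, which anchors the ribosome to the inner membrane, was also called (log2 1.57, adjusted p = 0.0168), but the call was lost without E replicate 2 (adjusted p = 0.0931), E replicate 3 (0.0724) or CM replicate 3 (0.0560). Mrpl10 and Mrpl11, which form the base of the stalk that carries Mrpl12, gave log2 fold changes of 0.46 (adjusted p = 0.638) and 1.70 (adjusted p = 0.0508). Mrpl3 gave 1.38 (adjusted p = 0.0557), Mrps22 0.76 (adjusted p = 0.317) and Mrps16 1.28 (adjusted p = 0.203), none past the threshold. Mrps36, outside the ribosome, was low everywhere but higher in CM, at 3.49, 2.62 and 1.89 CPM against 0.234, 0.304 and 0.183 (log2 3.45, SE 0.65, adjusted p = 0.000542).

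3 members are variants of a single bacterial protein, S18, and occupy different places in the ribosome. Mrps18a, the large subunit one, was at 21.4, 6.24 and 53.6 CPM in CM (log2 against E 1.98, adjusted p = 0.0378), but its fold change was 1.03 without CM replicate 3, and the call was lost without any 1 of AGHMT-labelled replicates 1 and 2, CM replicates 1 and 3 and E replicates 2 and 3 (adjusted p up to 0.244). Mrps18b and Mrps18c, of the small subunit, gave log2 fold changes of -0.89 (adjusted p = 0.255) and 0.79 (adjusted p = 0.477). Mrps18b thus had the lowest value of any tested member in this comparison, though not past the threshold. Mrps6, a small subunit protein, was at 26.9, 25.6 and 15.3 CPM in CM and at 19.3, 23.0 and 24.8 in E (log2 0.02, adjusted p = 0.981), and the 2 groups overlapped. Mrps30, of the large subunit, was at 56.8, 71.6 and 26.6 CPM in CM and at 12.3, 14.98 and 25.4 in E (log2 1.56, SE 0.45, adjusted p = 0.0112), a call that was lost without CM replicate 2, E replicate 1 or E replicate 2 (adjusted p up to 0.0927).

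The promoter sequences of 4 members higher in CM than in E are shown because factors that bind 3 short motifs are known to control many nuclear genes for mitochondrial proteins. RefSeq (GRCm38.p6) gave promoters for 69 of the 78 members, 75 in all, and the 250 bases before each start were searched on both strands for GCATGCGC (the factor NRF1), CCGGAAG (ETS factors such as GABP) and AAGATGGC (YY1). The 4 members were picked after the values were seen, from those called higher in CM than in E. Mrpl42 had the lowest adjusted p among those with a promoter and no motif match. Mrpl9 (log2 1.84, adjusted p = 0.00517) had the largest fold change with an NRF1 match, and Mrpl34 and Mrpl51 the largest with an ETS match. Their 4 sequences follow. Each runs 5′ to 3′ on the gene's strand up to the base before the start, with matched letters in capitals: Mrpl42 at chr10:95501950-95502199 (minus strand), Mrpl9 at chr3:94443086-94443335, Mrpl34 at chr8:71464676-71464925 and Mrpl51 at chr6:125191950-125192199 (plus strand).
Mrpl42: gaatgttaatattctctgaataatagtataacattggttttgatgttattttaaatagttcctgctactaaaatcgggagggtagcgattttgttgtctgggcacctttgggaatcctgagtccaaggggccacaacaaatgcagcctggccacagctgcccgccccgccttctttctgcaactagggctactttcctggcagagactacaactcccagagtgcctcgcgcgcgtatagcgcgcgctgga
Mrpl9: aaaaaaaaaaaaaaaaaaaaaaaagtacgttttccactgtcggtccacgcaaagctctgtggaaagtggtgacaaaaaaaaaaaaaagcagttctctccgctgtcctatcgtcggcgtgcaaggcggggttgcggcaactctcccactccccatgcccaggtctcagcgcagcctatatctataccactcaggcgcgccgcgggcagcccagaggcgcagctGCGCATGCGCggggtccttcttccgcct
Mrpl34: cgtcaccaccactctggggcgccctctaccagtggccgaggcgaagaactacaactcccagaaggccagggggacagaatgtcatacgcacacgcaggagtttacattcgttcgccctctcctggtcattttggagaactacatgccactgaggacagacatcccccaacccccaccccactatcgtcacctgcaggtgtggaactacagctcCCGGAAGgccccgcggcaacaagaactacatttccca
Mrpl51: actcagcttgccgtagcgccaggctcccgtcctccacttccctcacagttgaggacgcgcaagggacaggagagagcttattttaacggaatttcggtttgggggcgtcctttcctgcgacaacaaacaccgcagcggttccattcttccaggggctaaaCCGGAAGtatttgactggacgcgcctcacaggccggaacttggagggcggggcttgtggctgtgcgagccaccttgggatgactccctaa

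The Mrpl42 window holds none of the 3 motifs, which its choice required. In Mrpl9 the 10 capital letters hold the NRF1 motif on both strands, overlapping, 26 bases before the start, and the ETS match begins 37 bases before the start in Mrpl34 and 90 in Mrpl51. Among the members' 75 promoters, 10.7% held the NRF1 motif, 24% the ETS motif and 5.33% the YY1 motif, and 36% at least 1 of them. The same shares over all 32851 promoters were 2.26%, 6.91%, 1.56% and 10.2%, and over the 13176 promoters of tested protein-coding genes 4.08%, 12.6%, 1.80% and 17.3%. Members higher in CM than in E had a motif in 12 of 34 promoters (35.3%) and the other members in 15 of 41 (36.6%). A match describes letters in a window and is not evidence that a factor binds there.

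GHMT against E compares cells sorted after receiving the 4 factors with unsorted fibroblasts that had received an empty vector. Here 41 of 75 members were lower in GHMT and none was higher, beside 32.9% lower and 19.8% higher over all genes. The members' median log2 fold change was -2.01 (-1.91 with the 7 tested members that had no GHMT reads set at their bound), and that of all genes -1.06. The difference of the 2 medians was -0.95, and -1.42 to -0.58 over 24 settings. Lower calls covered 27 of 49 large subunit members and 14 of 25 small subunit members. The count was 25 lower with 2 higher after a correction for GC content and 20 lower with 6 higher after one for gene length, and 35 without GHMT replicate 1, CM replicate 3 and E replicate 1 together.

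Mrps25 and Mrps15, of the small subunit, were at or near 0 in GHMT. Mrps25 was at 0, 1.56 and 0.687 CPM in GHMT and 28.9, 17.1 and 32.6 in E (log2 -4.80, SE 0.62, adjusted p = 3.59e-05). Mrps15, whose bacterial counterpart binds the ribosomal RNA early in assembly, was at 1.31, 1.56 and 0 CPM against 21.1, 21.9 and 24.5 (log2 -4.55, SE 0.62, adjusted p = 5.73e-05). Each rests on 4 GHMT reads in all, the groups did not overlap, and most exon bases of Mrps25 also lie in Nr2c2 on the other strand. Of the large subunit, Mrpl13 was at 20.97, 3.65 and 8.25 CPM in GHMT and 49.8, 63.7 and 43.1 in E (log2 -2.40, SE 0.50, adjusted p = 0.00145), and Mrpl17 was at 0, 2.61 and 0.687 against 20.5, 16.9 and 9.05 (log2 -3.51, SE 0.70, adjusted p = 0.001). Mrpl20 fell as well (log2 -3.06, adjusted p = 0.00133), but its difference was -1.50 and no longer past the threshold after the length correction. Of the 27 calls named by rule in this comparison, 19 were kept with each library left out.

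Many members had too few GHMT reads for a fold change. Over the 3 GHMT libraries, 9 of the 78 members had no read, 23 had 1 to 3 reads and 46 had more. For members with none, the pooled reads of the E libraries were set against a floor of 3 reads over the GHMT group. By this pooled bound GHMT was lower at least 10.7-fold for Mrps16, 7.69-fold for Mrpl28, 6.18-fold for Mrpl58, 6.04-fold for Mrpl54 and 5.32-fold for Mrps26. The bounds leave out the spread between libraries: Mrpl28 was at 8.31, 3.89 and 2.11 CPM in E, beside a GHMT floor of 0.725 CPM. Mrpl58 is a peptidyl-tRNA hydrolase that releases stalled chains. With 1 to 3 reads, E exceeded GHMT 34.2 times for Mrps21 (exact 95% counting interval 9.45 to 283), 29.9 times for Mrpl45 (8.27 to 247) and 14.9 times for Mrps10 (5.09 to 72.5). These intervals also come from pooled reads and cover counting error only.

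Not every member was low in GHMT. Mrpl50, which had the highest level per kilobase of exon in E, GHMT and AGHMT-labelled, was at 17.0, 61.0 and 54.3 CPM in GHMT and at 41.3, 46.7 and 51.8 in E. Mrpl18 was at 20.97, 23.97 and 8.94 CPM in GHMT against 10.8, 8.96 and 11.3 in E, and Mrps22, which is needed for small subunit assembly, at 14.4, 4.17 and 40.6 against 12.2, 16.5 and 24.1. The groups overlapped for all 3 genes. Mrps18c shows how uneven the GHMT libraries were, with 1.31, 45.9 and 0.687 CPM. Across the 68 tested members with reads in GHMT the median coefficient of variation between its 3 libraries was 102%, beside 27.2% in E, 20.2% in AGHMT-labelled and 30.4% in CM.

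The comparison of AGHMT-labelled with E asks the same of the cells labelled as having received Akt in addition. In it 19 of 75 members were lower and 1, Mrps36, was higher, beside 24.6% lower and 21.9% higher over all genes, so the share of members called lower (19 of 75) was close to the background. The median log2 fold change was -0.80 for the members and -0.16 for all genes. Lower calls comprised 11 of 49 large and 8 of 25 small subunit members. The count rests on single libraries: it was 7 without AGHMT-labelled replicate 1, 6 without its replicate 3 and 5 without E replicate 1. It was 39 with DESeq2, 13 with 3 higher after the GC correction, and 37 with 6 higher in a fit of the 2 groups alone. The members' median relative to all genes was -0.63 (-0.74 to -0.47 over 24 settings).

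Mrps18b, Mrps12 and Mrpl2 were among the 4 of 15 rule-named calls that held with each library left out. Mrps18b was at 0.538, 1.05 and 1.20 CPM in AGHMT-labelled and 15.1, 9.67 and 4.71 in E (log2 -3.38, SE 0.66, adjusted p = 0.00115). Mrps12 was at 0.384, 1.38 and 1.58 CPM against 7.44, 5.27 and 5.17 (log2 -2.39, SE 0.56, adjusted p = 0.00378), though its fold change was -1.05 after the GC correction. Mrpl2, a core protein of the peptidyl transferase centre, was at 0.231, 0.275 and 0.327 CPM against 7.38, 3.14 and 1.44 (log2 -3.80, SE 0.997, adjusted p = 0.00722). In all 3 genes the groups were separate. Mrps36 was higher, at 0.769, 1.38 and 1.96 CPM (log2 2.49, SE 0.63, adjusted p = 0.00587), but not past the threshold with limma on the deposited normalized values (1.70, adjusted p = 0.0808). The stalk protein Mrpl12 was called lower too (log2 -1.95, adjusted p = 0.0335), but not without AGHMT-labelled replicate 1 or 3 or E replicate 1 or 2 (adjusted p up to 0.221). In all, 11 of the 15 calls were lost without at least 1 single library.

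AGHMT-labelled against GHMT holds the 4 factors and the sort in common, and differs in the Akt label. Of the 75 members, 15 were higher in AGHMT-labelled and none lower, beside 13.2% higher and 4.58% lower over all genes. The members' median was 1.17 (1.03 with bounds) and that of all genes 0.63. Of the 15, 10 were large and 5 small subunit members. This count also rests on single libraries: it was 7 without AGHMT-labelled replicate 1, 5 without its replicate 2, 9 without CM replicate 1 or without E replicate 2, and 27 without E replicate 1. It was 7 with all libraries thinned to equal depth, 6 with 2 lower after the length correction and 10 with 2 lower after the GC correction. The GHMT libraries were the shallowest of the series.

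Mrps15 and Mrps25, with 4 GHMT reads each, were among the 15 members called between the sorted groups. Mrps15 was at 10.8, 15.3 and 12.7 CPM in AGHMT-labelled (log2 3.75, SE 0.63, adjusted p = 0.00204) and Mrps25 at 9.53, 13.9 and 9.32 (log2 3.54, SE 0.64, adjusted p = 0.00289), beside the GHMT values given above, and neither group overlapped the other. Both calls held in all 24 alternative settings. Mrpl30 was at 14.4, 20.98 and 18.9 CPM in AGHMT-labelled and at 1.31, 6.77 and 3.44 in GHMT (log2 2.09, SE 0.49, adjusted p = 0.0119), and at 20.2, 11.5 and 16.2 in E. For Mrpl45, AGHMT-labelled exceeded GHMT 14.5 times (counting interval 3.98 to 120) from 2 GHMT reads. Mrpl17 (log2 2.65, adjusted p = 0.0205) lost its call without AGHMT-labelled replicate 2 (adjusted p = 0.0605), and Mrpl47 (2.52, adjusted p = 0.0239) without replicate 1 (0.0544) or replicate 2 (0.0760).

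Set against adult cardiomyocytes, both sorted groups had lower members. In CM against GHMT 68 of 75 members were higher in CM and none lower, beside 34.7% higher and 23.8% lower over all genes. In CM against AGHMT-labelled 55 were higher and none lower, beside 24.4% and 23.7%. The members' medians were 3.70 (3.37 with bounds) and 2.24, and those of all genes 0.89 and 0.05. These counts moved little with 1 library left out, 62 to 69 and 44 to 63. CM lay above AGHMT-labelled without overlap for 66 of the 75 members, a count that was not made over all genes and so has no background here. The calls comprised 39 of 49 large and 16 of 25 small subunit members.

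Among the members called in CM against AGHMT-labelled were the stalk and decoding proteins. Mrps12 differed by 4.49 on the log2 scale (SE 0.61, adjusted p = 6.52e-05), and Mrpl12, at 0.845, 1.87 and 0.927 CPM in AGHMT-labelled, by 5.43 (SE 0.80, adjusted p = 0.000128). Mrps24 differed by 4.98 (adjusted p = 0.000211), from 0.461, 0.716 and 0.709 CPM, and Mrpl42 by 3.87. Mrpl2 had a still larger value (5.82, adjusted p = 0.000719), but its CM levels of 5.80, 3.02 and 40.2 CPM were carried by replicate 3. At the other end, Mrpl17 was at 15.2, 15.2 and 22.5 CPM in CM, and its difference from AGHMT-labelled was not past the threshold (log2 1.05, adjusted p = 0.111). All 75 tested members had a positive fold change in this comparison, beside 7683 of all 15059 genes tested.

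**Figure D3:**
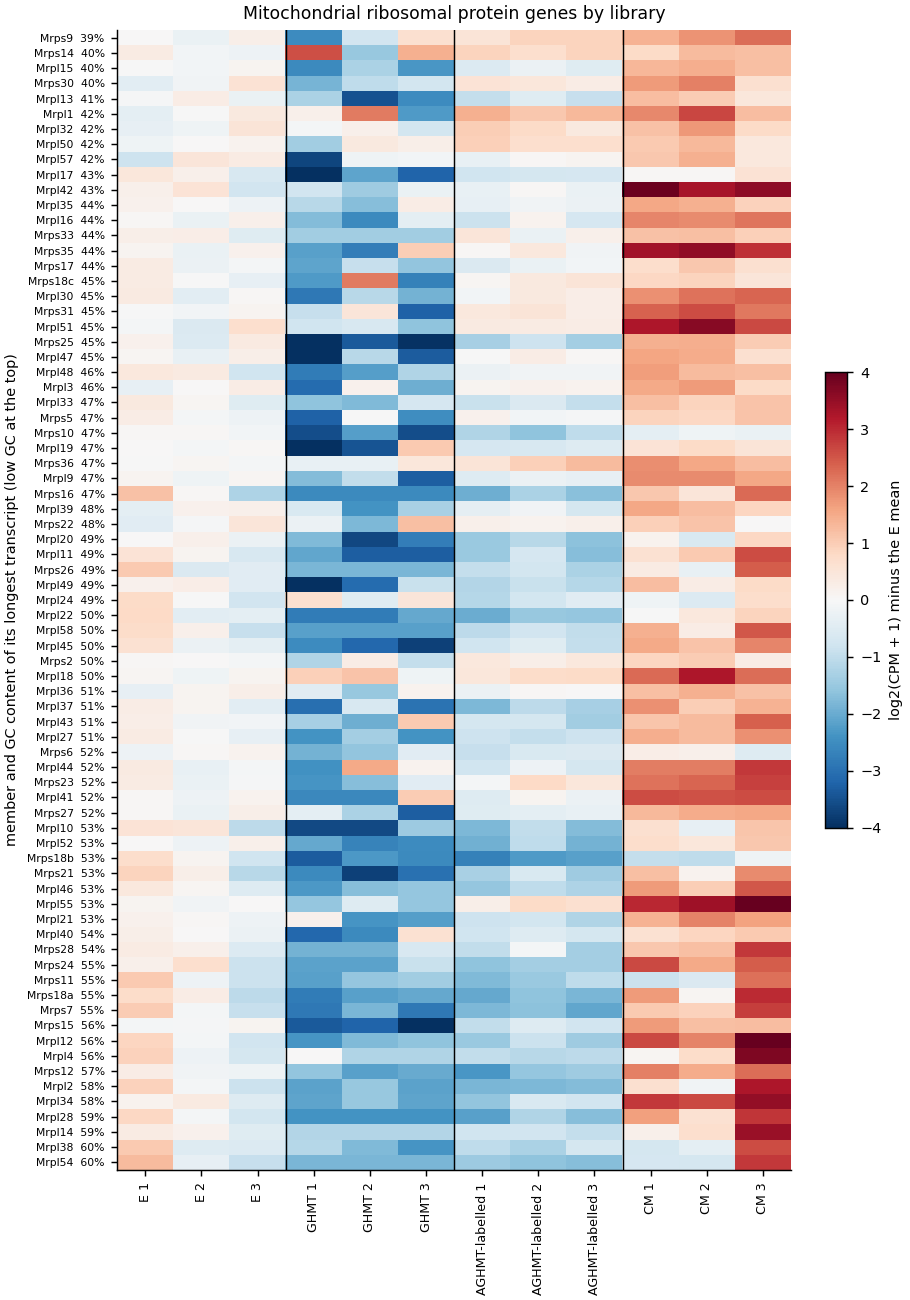
Members (vertical axis, ordered by the GC content of the longest transcript, low at the top) in each of the 12 libraries (horizontal axis), coloured by log2(CPM + 1) minus the mean of E. CM is above E for most members, GHMT is below, and within AGHMT-labelled the values are lower towards the GC-rich members.

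In the sorted groups, differences from E ran with the GC content of the transcripts. When the 75 members were divided into 3 sets of 25 by GC content (38.6 to 46.7%, 46.9 to 52.1% and 52.2 to 60.4%), the median log2 fold change of AGHMT-labelled against E was 0.12, -0.89 and -1.92. All genes in the same GC ranges gave 0.63, -0.33 and -1.59, which is a gradient of the same direction. The lower calls numbered 1, 5 and 13 of 25 members each, beside 24.6% of all genes without regard to GC content. In GHMT against E the members' medians were -1.13, -1.45 and -3.30, beside 0.41, -1.30 and -2.99 over all genes. In CM against E they were 1.36, 1.30 and 1.98, beside -0.44, -0.31 and 0.00. There 14, 10 and 14 of 25 members were called higher, beside 19.5% of all genes without regard to GC content. CM against AGHMT-labelled gave medians of 1.26, 2.06 and 3.38, beside -0.997, 0.16 and 1.74.

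GC content also separated libraries of 1 group. The GC-rich set made up 29.5% of the members' summed CPM in CM replicate 3 and 16.1% and 12.8% in the other 2 CM libraries, while E ranged from 12.5 to 21.2%, highest in replicate 1. In AGHMT-labelled this share was 6.5 to 9.0% and in GHMT 2.8 to 7.3%. Without GHMT replicate 1, CM replicate 3 and E replicate 1 together, the counts were 41 higher in CM than in E, 35 lower in GHMT than in E, 21 lower in AGHMT-labelled than in E, 15 higher in AGHMT-labelled than in GHMT (with 1 lower), 65 higher in CM than in GHMT and 57 higher in CM than in AGHMT-labelled. The part of GC content in the differences between groups was not tested.

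**Figure D4:**
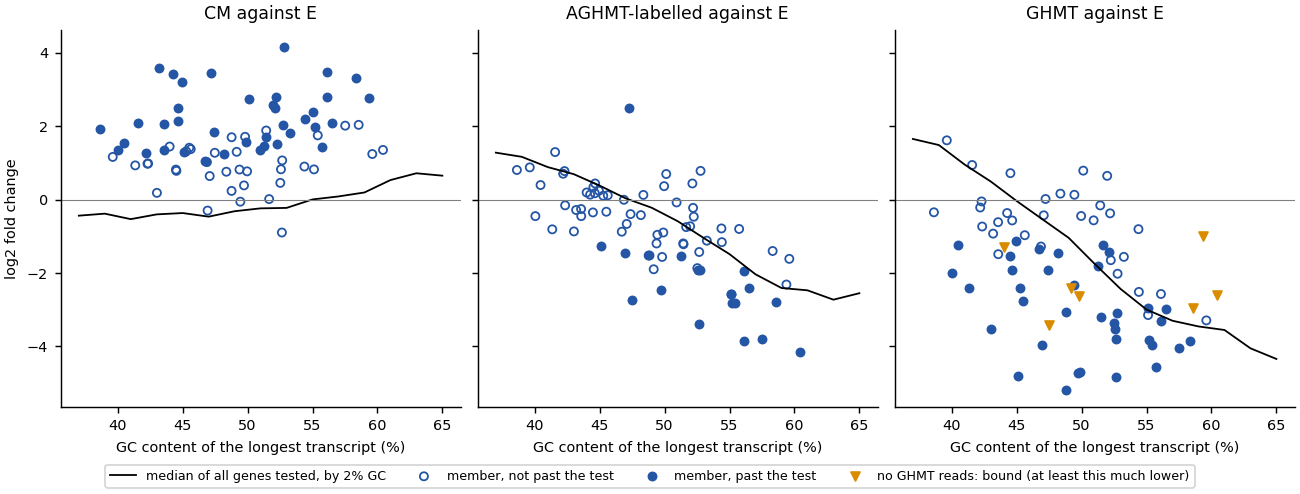
Log2 fold change of each tested member (vertical axis) against the GC content of its longest transcript in percent (horizontal axis), in 3 panels for the comparisons of CM, AGHMT-labelled and GHMT with E, with filled points for members past the test, triangles for members without GHMT reads at their bound, and the median of all genes tested as a line. The sorted groups' values decline with GC content along with the line, and in CM 72 of 75 members have a positive value, beside 6613 of all 15059 genes tested.

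The rest of the mitochondrial translation machinery was compared through lists of genes. Of the 5 mitoribosomal proteins with other symbols, Ptcd3 (log2 1.35, adjusted p = 0.0105) and Chchd1 (1.71, adjusted p = 0.0209) were higher in CM than in E, and Dap3, which binds GTP in the small subunit, was not called (0.98, adjusted p = 0.143). Of 14 translation factors, 4 were higher and none lower (median 1.22). Gfm1, the elongation factor that moves the ribosome along, was at 258, 271 and 156 CPM in CM against 35.6, 36.4 and 49.6 in E (log2 2.49, adjusted p = 1.75e-05). Taco1, an activator of Cox1 translation (2.69, adjusted p = 0.000236), and Lrpprc, which stabilises mitochondrial messenger RNAs (1.90, adjusted p = 0.00349), also rose. Beside the 19.5% called higher over all genes, 3 of 24 assembly and RNA modification genes (Mtg1, Mrm3 and Mrm1), 2 of 17 mitochondrial aminoacyl-tRNA synthetases (Fars2 and Aars2) and 1 of 7 transcription genes were called, all higher, and the medians were 1.03, 0.73 and 1.25. Aars2 was at 1.49, 0.604 and 14.1 CPM in CM and 1.56, 0.642 and 0.336 in E, so the groups overlapped and only CM replicate 3 lay above E.

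The products of the mitochondrial genome and the respiratory chain moved further than the members. In CM against E, 74 of 82 tested nuclear-encoded respiratory chain genes were higher (median 3.58) and all 10 tested mitochondrial messenger RNAs were (median 4.30). The 2 mitochondrial ribosomal RNAs, the RNA partners of the members, were higher in all 3 groups than in E: mt-Rnr1 and mt-Rnr2 had log2 fold changes of 3.78 and 3.73 in CM, 3.42 and 4.13 in AGHMT-labelled and 2.62 and 3.56 in GHMT. Their summed level was 1175 to 1617 CPM in E, 11347 to 13321 in GHMT, 17281 to 22192 in AGHMT-labelled and 10698 to 22597 in CM, although the library kit's handling of ribosomal RNA is not given in the sources used here.

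**Figure D5:**
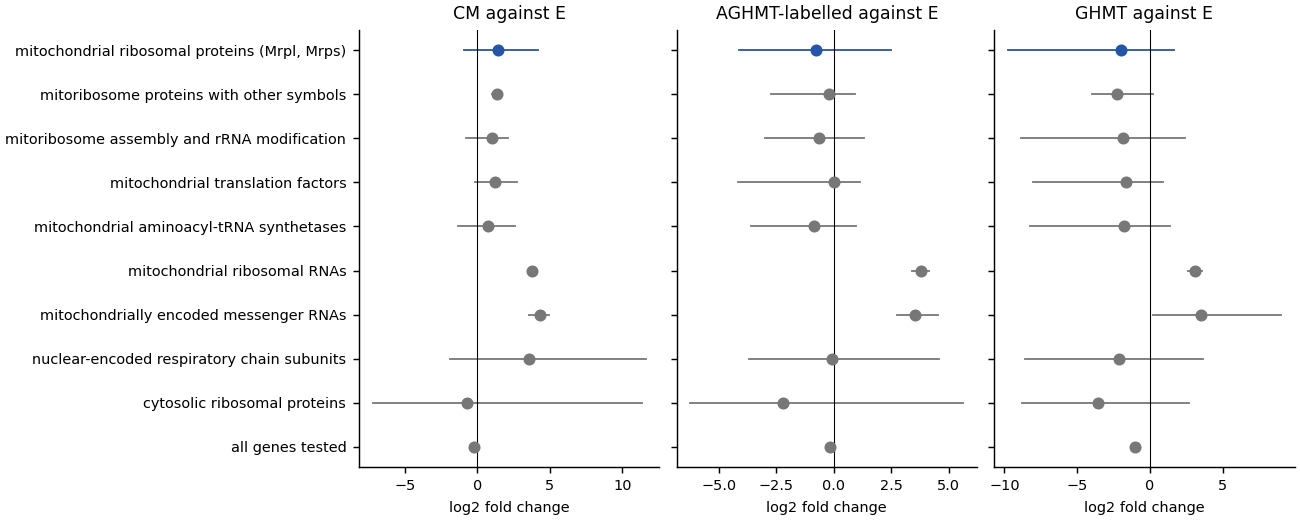
Median log2 fold change (point) and range from the lowest to the highest gene (line) on the horizontal axis, by gene list on the vertical axis, for CM, AGHMT-labelled and GHMT against E. All genes tested are shown by their median alone. In CM against E the median of the mitochondrial ribosomal proteins (1.44) lies between those of the cytosolic ribosomal proteins (-0.71) and the respiratory chain (3.58).

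In AGHMT-labelled against E the respiratory chain had 18 higher and 15 lower genes of 82 (median -0.07), beside 21.9% higher and 24.6% lower over all genes, and all 10 mitochondrial messenger RNAs were higher (median 3.52). Guf1, a translation factor, was higher (log2 1.13, adjusted p = 0.0239), and Slirp, the partner of Lrpprc, lower (-1.35, adjusted p = 0.0100). In GHMT against E the respiratory chain had 6 higher and 37 lower genes of 82 (median -2.15), beside 19.8% higher and 32.9% lower over all genes. Of the translation factors 7 of 14 were lower, and of the synthetases 7 of 17 (41.2%, not far from the share over all genes), with none higher in either. Mterf3, a protein linked to ribosome assembly, was higher in GHMT at 113, 70.3 and 69.4 CPM against 13.4, 17.5 and 17.6 (log2 2.37, adjusted p = 0.000128). The cytosolic ribosomal proteins, which serve all other translation, had 47 of 71 members lower in GHMT and 47 lower in AGHMT-labelled (medians -3.57 and -2.22). Over all genes, 32.9% and 24.6% were lower. In CM 10 of the 71 were lower and 1 higher (median -0.71), beside 22.5% and 19.5% over all genes. Per summed CPM of the mitochondrial members the cytosolic ones stood at 2.61 to 4.56 in E, 1.04 to 1.30 in GHMT, 1.04 to 1.08 in AGHMT-labelled and 0.509 to 0.922 in CM. Alignments that were not unique are absent from these counts. How far this affects the cytosolic values was not tested, so the ratio is not a measure of the true amounts. GHMT medians of these lists hold genes without reads at their fitted value.

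Among 11 regulators of nuclear genes for mitochondrial proteins, the coactivator Ppargc1a was higher than in E in all 3 other groups. It was at 0.134, 0.203 and 0.275 CPM in E, 17.0, 26.6 and 33.0 in GHMT, 94.4, 69.6 and 76.9 in AGHMT-labelled and 174, 204 and 99.5 in CM, with no overlap between groups (CM against E, log2 9.61, adjusted p = 4.38e-09). The nuclear receptor Esrrg, its partner, had means of 0.432, 1.26, 20.4 and 44.8 CPM in the same order (log2 6.70 in CM, adjusted p = 1.22e-06). Both genes had higher means in GHMT and AGHMT-labelled than in E, unlike the summed members. For Esrrg, however, GHMT overlapped E and was not called against it (log2 1.73, adjusted p = 0.0802). Ppargc1b and Esrrb were called higher than in E in CM and AGHMT-labelled and were at 0 in GHMT. There 3 reads over the group correspond to 0.725 CPM, and the AGHMT-labelled means were only 0.833 and 0.581 CPM. The nuclear receptor Esrra had means of 29.96 CPM in CM and 0.801 in E (log2 5.18, adjusted p = 0.00352), but its CM libraries were at 2.16, 4.93 and 82.8 CPM. Its means were 0.432 CPM in AGHMT-labelled and 0.174 in GHMT, and neither sorted group was called against E. The GHMT mean rests on 1 read, so GHMT could not be ranked against AGHMT-labelled or E. Gabpa, Gabpb1, Nrf1 and Yy1, which code for the factors whose motifs were searched, were not called in CM against E, and Gabpa (log2 1.49, adjusted p = 0.00227) and Yy1 (1.02, adjusted p = 0.00996) were higher in GHMT than in E. Gabpa, Gabpb1 and Yy1 were called lower in CM than in GHMT (log2 -2.08, -1.36 and -1.68). They were also called lower in CM than in AGHMT-labelled (-0.92, -1.28 and -1.19), the opposite direction to the members. Nrf1 was not called in either comparison. Myc was lower in CM (-3.31, adjusted p = 0.00261), GHMT and AGHMT-labelled than in E. Pprc1 was also lower than in E in CM (log2 -1.82, adjusted p = 0.0264), GHMT (-3.37, adjusted p = 0.00222) and AGHMT-labelled (-2.15, adjusted p = 0.0117), the opposite direction to Ppargc1a.

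Per kilobase of exon the members spread widely. The length joins the exons of all annotated transcripts of a gene, 607 bases for Mrpl34 and 7605 for Mrpl17. Comparisons between genes thus depend on the annotation as well as on the level. The median level was 11.99 CPM per kilobase in CM, 3.75 in E, 2.42 in AGHMT-labelled and 0.901 in GHMT. The leading members were Mrpl50 (22.04 CPM per kilobase), Mrps21 and Mrpl20 in E, and Mrpl42 (64.9), Mrpl34 (58.0) and Mrpl18 in CM. Mrpl50 (37.9), Mrps18c (12.1) and Mrpl18 (12.01) led in AGHMT-labelled, and the same 3 genes in GHMT, where the place of Mrps18c rests on replicate 2 (45.9 CPM, against 1.31 and 0.687 in the others). So the order of the members changed from E to CM, while Mrpl50 stayed first in the 3 groups that began as fibroblasts. The 3 most abundant members made up 14.7% of all member CPM in E, 18.1% in CM, 19.8% in AGHMT-labelled and 30.2% in GHMT. By mean CPM, CM was the highest group for 71 of the 75 tested members, and GHMT the lowest for 65. The same counts were not made over all genes, whose median log2 fold change in GHMT against E was itself -1.06.

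Some members' reads could belong to neighbours or copies. Mrpl53 had no reads and shares 88.0% of its exon bases with Gm42688, Mrpl23 has a pseudogene copy and stood at 0.304 CPM in E and 0.743 in CM, and Mrps34 overlaps Nme3 and Mapk8ip3. These are the 3 members that were not tested. Of the tested ones, Mrps25 shares 69.8% of its exon bases with Nr2c2, Mrpl19 36% with Gcfc2, Mrpl43 33.4% with Twnk and Mrps18b 30.5% with Gm16279, all on the other strand, and Mrps36 has 3 pseudogene copies. The kit marks strand, but whether strand was used for the counts is not stated in the labels, so the values of these genes are uncertain.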

How the data were processed

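RNA-seq read counts per gene came from the deposited files of 12 libraries (TRIzol RNA and a stranded kit, per the labels' protocols). The authors used Bowtie2 2.0.6, mm10, HTSeq and DESeq, per the submitters' processing notes. Not given in the sources used here were the annotation version and the strand setting. The deposited table of normalized values (signal) held the same counts divided by size factors, since 100% of its values came out as whole reads within 0.001. Among uniquely aligned reads, those counted in no single gene made up 10.4 to 22.6% of each library and were left out. Alignments marked as not unique lie outside this share and were not counted either. They outnumbered the reads assigned to genes in every library, with 41092329 against 15952646 in CM replicate 1.

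Symbols and exons came from GENCODE M21, which matched 42549 of 43629 gene IDs. Mrpl33 was matched through reads equal in all 12 libraries. The counts were fitted in 1 model with edgeR 4.0.16 (robust quasi-likelihood test, filterByExpr with a minimum of 10 and a total of 15 reads, TMM factors, R 4.3.3), with Benjamini-Hochberg adjustment over 15059 genes and a threshold of 0.05. CPM use the TMM scale. A standard error is the absolute fold change over the root of F. The code was tested on simulated data.

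The members and lists were chosen with earlier results of these data known. Members were named by rule: up to 4 called members per comparison, direction and subunit by fold change, where the higher group reached 10 CPM, members with a fixed role, the extremes per length, and those not tested. Alternatives were DESeq2 (1.42.0) and its size factors, total counts, no filter, limma (3.58.1) on log2 of the deposited values plus 1, a fit of 2 groups, a replicate block, corrections for GC content and length, thinning to 612458 reads outside the mitochondrial genome, and each library left out. Leaving out mitochondrially encoded genes, or 3 libraries together, was added after seeing the data. Whether equal replicate numbers mark shared material was examined on the deviations of all 15059 tested genes from their group means.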

Additional observations from a re-analysis of the deposited data

How the results depend on the processing

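Over 140 named calls, 2979 values under alternative settings kept their direction and side of the threshold, 355 kept the direction but no longer passed, and 6 turned. The 6 were Mrps23 in GHMT against E (0.34 after GC correction), Mrps6 in GHMT against E (0.43 after GC and 0.21 after length correction) and in CM against GHMT (-0.21 and -0.33), and Mrpl50 in CM against GHMT (-0.19 after length correction). The members higher in CM than in E numbered 9 with total counts, and 18 to 50 with each library left out. In GHMT against E, lower members numbered 25 after GC and 20 after length correction, and higher ones 2 and 6, 1 with no filter, and 0 to 2 with each library left out. In AGHMT-labelled against E, lower members numbered 39 with DESeq2, 9 with limma, 9 thinned, 35 with total counts, 37 in a fit of the 2 groups and 5 to 26 with each library left out. Higher ones there numbered 3 after GC and 2 after length correction, 0 with limma, 0 thinned, 2 with no filter, 6 in a fit of the 2 groups, 2 without the 3 libraries and 1 to 2 with each library left out. In AGHMT-labelled against GHMT, higher members numbered 6 after length correction, 25 with limma, 4 in a fit of the 2 groups, 7 thinned, 23 without mitochondrially encoded genes and 5 to 27 with each library left out, and lower ones 2 after GC correction, 2 after length correction, 1 without the 3 libraries and 0 to 1 with each library left out. In CM against GHMT, 1 member was lower after length correction. The cause of these changes was not tested. The depth of GHMT limits every comparison with it.

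With a replicate block, members higher in CM than in E numbered 24, and those higher in AGHMT-labelled than in GHMT 6, and the other counts moved by less than 1.5 times. Over all genes tested, the deviations of same-numbered libraries of 2 groups had correlations of -0.719 to 0.131 (median -0.0348). Differently numbered ones ranged from -0.759 to 0.790. Since libraries with different numbers reached values as strong, these correlations cannot decide whether equal numbers mark shared material.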
